A study of Mus musculus with 24 samples.

Results

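The transporter genes of 6 solute carrier families that move amino acids across membranes, Slc1, Slc3, Slc7, Slc36, Slc38 and Slc43, were followed in mouse liver and brain across 4 selenium diets. A gene was a member when its symbol belonged to these families and its mean reached at least 5 normalized reads over the 12 liver or the 12 brain libraries. This took 36 of the 21894 genes measured: 6 of Slc1, 2 of Slc3, 12 of Slc7, 3 of Slc36, 10 of Slc38 and 3 of Slc43. Of 39 symbols of the families in the table, Slc7a6os was left out because it names another gene, and 2 were left out by their level. Those were Slc1a7, with means of 1.27 in brain and 1.06 in liver, and Slc38a8, with 2.83 and 0.125; the members nearest above the limit were Slc7a15, at 9.54 in liver, and Slc36a2, at 12.5 in brain. The mean reached the limit in both tissues for 25 members, in liver alone for 3 and in brain alone for 8.

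The animals were males of the inbred strain C57BL/6J and had eaten normal chow until 8 weeks of age. They then ate feed with no added selenium (0 ppm), or with selenium added at 2.25 ppm, 0.4 ppm or 0.1 ppm, for 5 weeks, and RNA from whole brain and from liver was sequenced. Each of the 8 groups of tissue and diet had 3 libraries, 24 in all, named a, b and c within a group. The labels give neither the hour of collection nor the feeding state. The groups thus shared strain, sex, age and chow before the diets, and the 0 ppm group differed from the others by the absence of added selenium.

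Carriers of the Slc1 and Slc38 families mostly draw amino acids into the cell with sodium. The light chains of the Slc7 family swap amino acids across the membrane and need a heavy chain of the Slc3 family to reach it, the cationic carriers Slc7a1, Slc7a2 and Slc7a3 work alone, and Slc36a1 uses protons on lysosomes. In liver, systems A and N of the Slc38 family bring in alanine, glutamine and histidine, which feed gluconeogenesis and the urea cycle, while Slc7a2 brings in arginine, lysine and ornithine. In brain, Slc1a2 and Slc1a3 on astrocytes clear glutamate from synapses, and Slc7a11 exchanges glutamate for cystine, which cells use to make glutathione.

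Values are the authors' normalized reads per gene, and a change is a difference of log2(value + 1), given with the standard error (SE) of the limma fit and called when the p-value adjusted over all genes by the Benjamini-Hochberg method was below 0.05. Depth was 11.5 to 18.4 M reads per liver library and 12.9 to 17.8 M per brain library. The limit of 3 reads used here, which covers counting error alone, equals 3.12 to 5.32 normalized reads in liver libraries and 1.75 to 2.34 in those of brain. The tissues carried their defining markers: 10 hepatocyte genes summed to 1305200 to 2233170 in liver and 2379 to 10651 in brain, and 8 neuronal genes to 57012 to 68662 in brain and 146 to 568 in liver. Pituitary transcripts summed to 89586 in brain library 0 ppm a and 53193 in 0.1 ppm b, against 44.1 to 594 in the other 10 brain libraries. In liver, circadian clock genes differed among the diets, with 13 of 19 called, and in some of them the third library at 0 ppm, c, differed from the others on its diet. At 0 ppm a, b and c, the clock gene Dbp was at 428, 463 and 1672, and Arntl at 136, 185 and 35.7. Nr1d1, a clock repressor, was at 1158, 2186 and 1130 in the libraries at 0 ppm, 874, 494 and 582 at 0.1 ppm, 729, 496 and 365 at 0.4 ppm, and 165, 147 and 141 at 2.25 ppm.

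The carriers with the highest levels differed between liver and brain, apart from Slc38a2, which ranked 4th per kilobase in both. Per kilobase of exon, the highest liver members over the 12 libraries were Slc38a3 at 5468 ± 976 (SD, n = 12) and Slc38a4 at 5332 ± 1343, which differed by less than their spread. Slc38a3 is a system N carrier of glutamine and histidine, and Slc38a4 a system A carrier of small neutral amino acids. They were followed by the cationic carrier Slc7a2 at 1061 ± 632, then by Slc38a2, another system A carrier, at 472 ± 241 per kilobase, Slc38a10 at 349 ± 15.7 and Slc3a1, the heavy chain of the cystine and dibasic carrier, at 286 ± 134. Slc7a2 stood clear of the 2 above it in all 12 libraries, and the libraries of Slc38a2, Slc38a10 and Slc3a1 overlapped. In brain the order per kilobase was led by Slc1a2, the glial glutamate carrier GLT-1, at 1678 ± 158 (SD, n = 12), and Slc1a3, the glutamate carrier GLAST, at 782 ± 89.4. Slc3a2, the heavy chain 4F2hc, followed at 337 ± 9.76, then Slc38a2 at 292 ± 45.7, Slc7a5, the large neutral amino acid carrier LAT1, at 226 ± 23.9 and Slc38a1, a system A carrier of neurons, at 196 ± 10.99 per kilobase. Slc1a2 and Slc1a3 each stood clear of the next in order in all 12 libraries, while Slc3a2, at 320 to 350 per kilobase, overlapped Slc38a2, at 229 to 377.

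**Figure D1:**
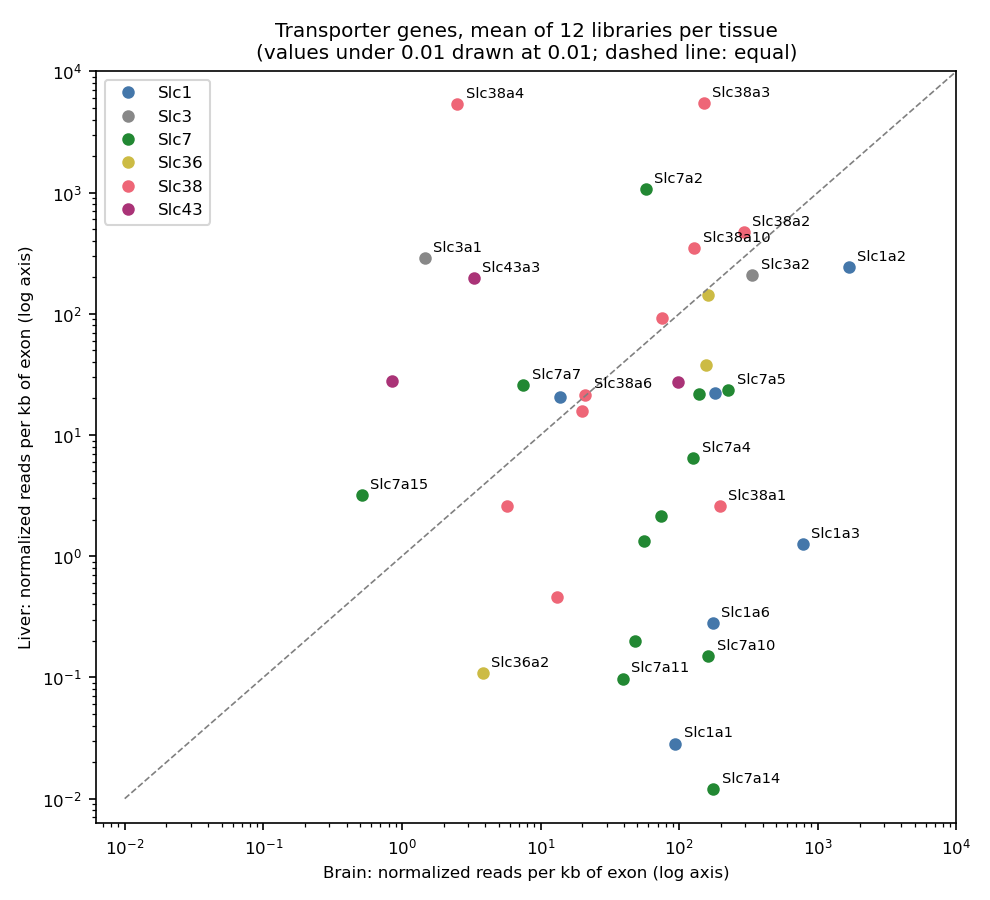
Mean level of each of the 36 transporter genes in brain (x axis) and liver (y axis), in normalized reads per kilobase of exon over 12 libraries, on log axes; colours mark the family, and the dashed line marks equal levels. Slc38a3 and Slc38a4 stand at the top of liver, Slc1a2 and Slc1a3 at the right of brain, and a group of brain members lies near 0 in liver.

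Between the tissues, 35 of 36 members were called, 12 higher in liver, where 35.7% of all genes were, and 23 lower, where 55.6% were. Slc38a6 was the exception, at 167 ± 23.3 in liver and 164 ± 15.3 in brain (adjusted p = 0.789). Part of these calls follows from the choice of members, since 8 reached the limit of 5 in brain alone and 3 in liver alone. The shares are over genes not held to that limit, so the 2 cannot be compared directly. Of the 21 members above 3 reads in all 24 libraries, 10 were higher in liver and 11 in brain, and 14 differed by more than 2-fold. Slc38a4 was the most liver-weighted of these, with 22718 ± 5723 normalized reads in liver against 10.7 ± 3.15 in brain, 2129-fold. Slc43a3, a carrier of purine nucleobases rather than amino acids, was 60.3-fold higher in liver, Slc38a3 36.2-fold and Slc7a2 18.4-fold. In the other direction Slc38a1 was 76.2-fold higher in brain, Slc7a4 19.7-fold, Slc7a5 9.64-fold and Slc1a4, a carrier of serine and alanine, 8.13-fold. In bulk RNA, fewer cells of a type and less RNA per cell cannot be told apart.

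Several carriers of brain were at or near 0 in liver, although its leading glutamate carrier, Slc1a2, was at 2298 to 4370 normalized reads there. Slc7a11, which imports cystine, was at 546 ± 72.1 in brain (SD, n = 12) and at or under 3 reads in every liver library, with 0 to 4.50 normalized reads across the 12. Slc1a1, a neuronal glutamate and cysteine carrier, was at 776 ± 75.8 in brain and 0 to 1.47 in liver, and 10 of 12 liver libraries held no read of it. Slc1a3 stood at 6680 ± 763 in brain and at 2.80 to 24.01 in liver. Beside Slc7a11, 7 members were at or under 3 reads in every liver library: Slc1a1, Slc1a6, Slc36a2, Slc38a5, Slc7a10, Slc7a14 and Slc7a3. Slc1a1 shares 31.9% of its exon bases with 4430402I18Rik on the opposite strand, and Slc3a1 26.5% with Prepl; whether the authors' counting used the strand is not given in the sources used here.

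Across the diets, more carriers were called in liver than in brain. In liver, 10 of 34 members tested were called for any difference among the 4 diets, against 10.9% of all genes. They were Slc7a2 (adjusted p = 3.62e-05), Slc38a4 (0.000287), Slc43a3 (0.0022), Slc38a3 (0.0101), Slc43a1 (0.0147), Slc38a2 (0.0161), Slc7a7 (0.025), Slc1a2 (0.0294), Slc36a1 (0.0465) and Slc1a5 (0.0482). With each of the 12 libraries left out in turn, this call was lost 10 times for Slc1a5 and 9 times for Slc36a1. It was lost 4 times for Slc1a2, 2 times for Slc43a1 and 1 time each for Slc38a2 and Slc7a7. No single library ended it for Slc7a2, Slc38a4, Slc43a3 or Slc38a3. Slc38a11 passed in a single contrast, which brings the members called in any liver test to 11 of 34 tested, against 13.9% of all genes. By family these were 4 of Slc38, 2 of Slc43, 2 of Slc7, 2 of Slc1, 1 of Slc36 and none of Slc3. At 500 or more normalized reads in liver, 7 of 10 members were called, beside 28% of all genes tested at that level. Between 5 and 500 reads 4 of 18 were called, beside 12.2% of genes. Of the 8 members below 5, 6 could be tested, and limma and edgeR each called 0 of them in any liver test, with 0 at an unadjusted p under 0.05, beside 1.52% of genes called by limma. Calls were thus more frequent at higher levels among all genes too, and the difference between the members and other genes was not tested.

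**Figure D2:**
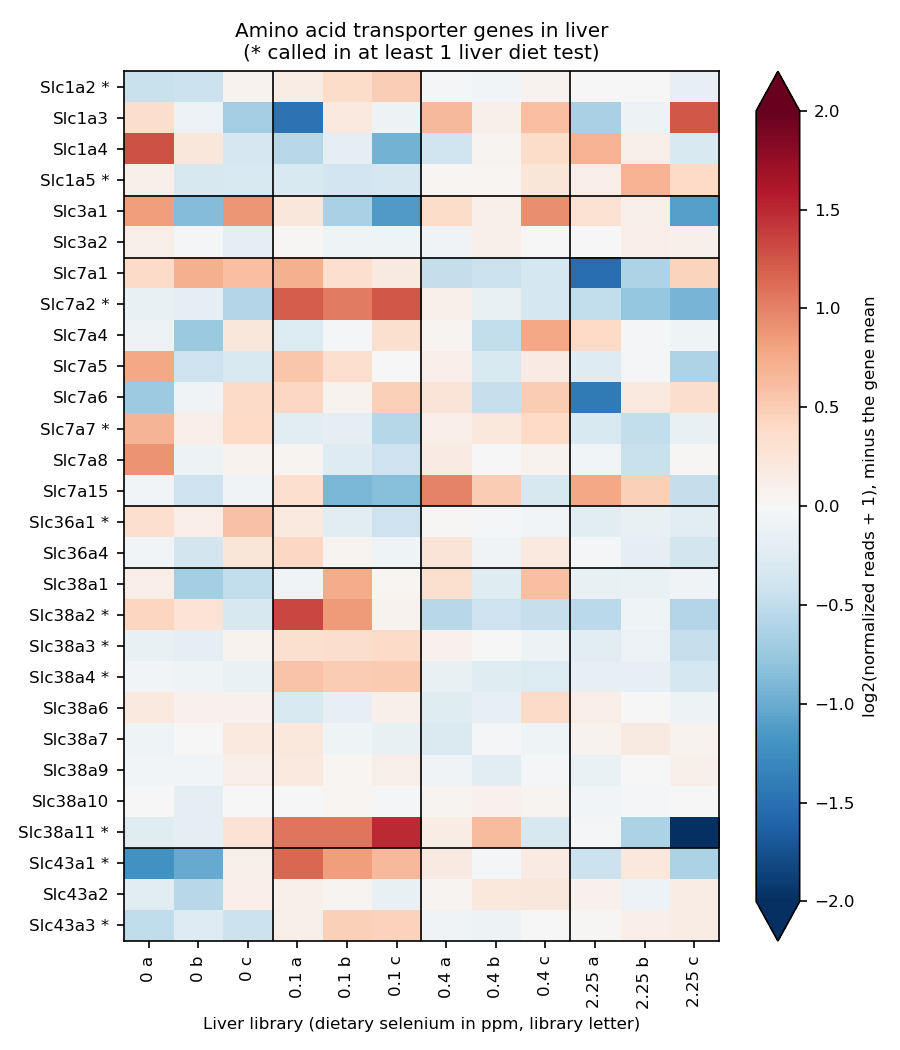
Liver level of the 28 members at a mean of 5 or more, as log2(normalized reads + 1) minus the gene's mean over the 12 libraries (colour scale), with libraries in columns by diet and genes in rows by family; an asterisk marks the 11 genes called in a liver diet test. The 3 columns at 0.1 ppm are the highest in Slc7a2, Slc38a3, Slc38a4, Slc38a11, Slc43a1 and Slc1a2.

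The 3 contrasts used the 0.1 ppm libraries as their reference and so share them. At 0 ppm, 8 members were called, 2 higher (1.82% of all genes) and 6 lower (4.31%). At 0.4 ppm, 3 were called, all lower, where 0.94% of all genes were lower and 0.549% higher. At 2.25 ppm, 7 were called, 1 higher (4.23%) and 6 lower (3.62%). The median log2 change over the 34 members was -0.11, -0.0066 and -0.088 at 0, 0.4 and 2.25 ppm, beside -0.0058, -0.012 and -0.00077 over all genes. The median size of the change, with its sign left out, was 0.32, 0.35 and 0.50 over the members and 0.23, 0.21 and 0.25 over all genes.

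Several members peaked at 0.1 ppm. In liver, all 3 libraries at 0.1 ppm lay above the other 9 in 6 of 34 members, against 3.25% of all genes. They lay below them in 0 of 34, against 2.2%. These shares are over genes tested at any level, and no share at the levels of the members was taken. The 6 were Slc7a2, Slc38a3, Slc38a4, Slc38a11, Slc43a1 and Slc1a2, and under quantile normalization, an alternative chosen after the data were seen, 5 did so, without Slc1a2. Of the 28 members at a mean of 5 or more in liver, 13 had their highest diet mean at 0.1 ppm, 6 at 0 ppm, 6 at 0.4 ppm and 3 at 2.25 ppm, where 28.6%, 25.6%, 17.5% and 28.2% of genes at that level did. The lowest diet mean was also most often at 0.1 ppm, in 9 of the 28, with 7 at 0 ppm, 4 at 0.4 ppm and 8 at 2.25 ppm, where 26.5%, 28.0%, 20.8% and 24.6% of genes were lowest. In brain, all 3 libraries at 0.1 ppm lay above the other 9 in 1 of 36 members, Slc7a8, beside 274 of 21127 genes. They lay below the other 9 in 1 member, Slc36a1, beside 248 genes. Other pairs of diets were not tested.

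Of 16 lists of cell type markers, 3 had summed levels in liver with the same form, all 3 libraries at 0.1 ppm above the other 9. They were the 9 pericentral hepatocyte markers, at 220118 to 260917 against 146096 to 200763, the 8 of brain endothelium, at 3837 to 4391 against 1330 to 1905, and the 8 of neurons, at 468 to 568 against 146 to 433. A single gene made up most of each sum at 0.1 ppm. Mfsd2a, a lipid carrier of the endothelial list, was at 2901 to 3376 at 0.1 ppm and 513 to 1001 in the other 9. Slc2a1, at 319 to 394 against 191 to 307, and Abcb1a, at 96.5 to 138 against 35.0 to 91.4, also stood above. The rest of that list overlapped, such as Cldn5, a tight junction protein that defines that endothelium, at 93.7 to 108 and 98.8 to 181. Syt1, a vesicle protein of the neuronal list, was at 447 to 541 and 128 to 412, while Nefl, Stmn2, Tubb3 and Gad1 were each at 0 in a 0.1 ppm library or more. Cyp2e1, a cytochrome of the pericentral list, was at 162745 to 194314 and 93016 to 142688. The part of these lists in the peaks of the members was not tested.

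Slc7a2, the carrier CAT-2 of arginine, lysine and ornithine, had the strongest diet dependence of the members. Its liver libraries held 7576, 7406 and 5637 normalized reads at 0 ppm, 19546, 17417 and 19983 at 0.1 ppm, 9178, 7637 and 6614 at 0.4 ppm, and 5989, 4939 and 4429 at 2.25 ppm. The 0.1 ppm libraries all lay far above the rest, and the 0 and 0.4 ppm libraries overlapped. Against 0.1 ppm the log2 change was -1.48 (SE 0.14, adjusted p = 9.63e-05) at 0 ppm, -1.29 (SE 0.14, adjusted p = 0.000852) at 0.4 ppm and -1.90 (SE 0.14, adjusted p = 1.17e-05) at 2.25 ppm, a fall of 2.78-fold, 2.45-fold and 3.73-fold. No library left out in turn ended any of these calls. Slc7a2 (ENSMUSG00000031596.15) lies on chromosome 8 of mm10 from 40862396 to 40922308, plus strand, and 7% of its exon bases overlap Gm26584, a non-coding RNA on the opposite strand. In liver Gm26584 was at 39.6 to 102 normalized reads at 0.1 ppm and 2.84 to 38.5 on the other diets. Its part in the values of Slc7a2 was not tested. In brain Slc7a2 ranged from 463 to 618 over the 12 libraries, and none of its 3 contrasts was called.

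The system A and system N carriers of the Slc38 family followed the same order at their top. Slc38a4 was at 21341, 20880 and 20269 at 0 ppm, 32718, 31448 and 31920 at 0.1 ppm, 19945, 18810 and 18371 at 0.4 ppm, and 19748, 19838 and 17326 at 2.25 ppm. The 0.1 ppm libraries stood clear of all others, and those at 0.4 and 2.25 ppm overlapped. The log2 change against 0.1 ppm was -0.62 (SE 0.08, adjusted p = 0.000727) at 0 ppm, -0.75 (SE 0.08, adjusted p = 0.000852) at 0.4 ppm and -0.76 (SE 0.08, adjusted p = 0.000207) at 2.25 ppm, and no single library ended a call.

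Slc38a3, the system N carrier SNAT3 of glutamine, was at 25592, 25186 and 29843 at 0 ppm, 35641, 36179 and 37124 at 0.1 ppm, 30183, 28461 and 26613 at 0.4 ppm, and 24581, 26114 and 20744 at 2.25 ppm. The 0.1 ppm libraries were again the highest 3, while the other diets overlapped. It fell by 0.62 (SE 0.11, adjusted p = 0.00328) at 2.25 ppm and fell by 0.44 (SE 0.11, adjusted p = 0.0252) at 0 ppm on the log2 scale. The change at 0.4 ppm was -0.36 and was not called (adjusted p = 0.114). Leaving out 0 ppm a, 0 ppm b, 0.1 ppm b or 0.1 ppm c ended the call at 0 ppm (adjusted p = 0.0578 to 0.0995), as did quantile normalization (0.149).

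Slc38a2, the system A carrier SNAT2 whose transcript is known to respond to amino acid shortage, spread more widely within groups. Its liver libraries held 5110, 4582 and 3052 at 0 ppm, 9560, 6830 and 4005 at 0.1 ppm, 2592, 2850 and 2751 at 0.4 ppm, and 2628, 3577 and 2536 at 2.25 ppm. The lowest 0.1 ppm library lay below 2 of the 3 at 0 ppm but above all 6 at the higher doses. The log2 change was -1.23 (SE 0.25, adjusted p = 0.0312) at 0.4 ppm and -1.15 (SE 0.25, adjusted p = 0.0134) at 2.25 ppm, while -0.62 at 0 ppm was not called (adjusted p = 0.186). Leaving out 0.1 ppm a, 0.1 ppm b or any library at 0.4 ppm ended the call at 0.4 ppm (0.0926 to 0.122), and leaving out 0.1 ppm b, 2.25 ppm a or 2.25 ppm c that at 2.25 ppm (0.0515 to 0.059).

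Slc38a2 and Slc38a4 neighbour each other on chromosome 15 with Slc38a1, in a stretch from 96571418 to 97055956 of mm10 with gaps of 44.5 kb and 295.1 kb. The sequences around their start sites, from RefSeq on GRCm38.p6, are shown because both genes were called in liver. Slc38a1 was not called. Its liver means were 34.4, 52.2, 51.5 and 39.3 at 0, 0.1, 0.4 and 2.25 ppm. Its libraries overlapped, at 40.5 to 72.2 at 0.1 ppm and 35.9 to 65.1 at 0.4 ppm. Each sequence shown runs from 250 bases before to 50 bases after the start site, 5′ to 3′ on the gene's strand. Of the 3 windows of Slc38a4, the window shown covers the gene's annotated end at 97055956. The windows are chr15:96699679-96699978 (minus strand) and chr15:97055907-97056206 (minus strand).
Slc38a2: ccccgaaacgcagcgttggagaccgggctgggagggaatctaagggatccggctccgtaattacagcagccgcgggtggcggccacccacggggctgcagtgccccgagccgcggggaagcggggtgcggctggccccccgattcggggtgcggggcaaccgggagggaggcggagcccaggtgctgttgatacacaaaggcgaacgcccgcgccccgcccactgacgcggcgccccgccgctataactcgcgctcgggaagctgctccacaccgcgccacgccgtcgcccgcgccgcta
Slc38a4: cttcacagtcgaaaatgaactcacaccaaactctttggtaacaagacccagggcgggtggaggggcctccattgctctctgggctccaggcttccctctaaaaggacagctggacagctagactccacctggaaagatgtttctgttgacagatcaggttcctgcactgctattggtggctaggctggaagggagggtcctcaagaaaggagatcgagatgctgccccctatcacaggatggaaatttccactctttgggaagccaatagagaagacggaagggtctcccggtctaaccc
Both windows were searched on both strands for 5 motifs: the element CARE (TGATGNAA), which ATF4 binds when amino acids are short, the cAMP response element (TGACGTCA), the E-box (CACGTG) of clock and Myc factors, the forkhead motif (GTAAACA) and the D-box (TTATGTAA) of Dbp. The cAMP response element and the E-box share the letters ACGT. Neither window held any of them, and 3.97%, 1.79%, 7.15%, 3.65% and 0.938% of all 32851 windows of 300 bases did. Among 37 windows of 27 members, CARE was found for 3 genes, Slc1a4, Slc7a7 and Slc7a11, and the E-box for 6, Slc1a6, Slc36a1, Slc38a5, Slc38a7, Slc43a1 and Slc7a14. No match in a window says only that these letters are absent from it.

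Of the 3 Slc43 carriers, Slc43a1 and Slc43a3 were called in liver and Slc43a2 was not. Slc43a1, the large neutral amino acid carrier LAT3, was at 61.3, 70.0 and 155 at 0 ppm, 319, 255 and 223 at 0.1 ppm, 162, 141 and 160 at 0.4 ppm, and 105, 165 and 91.5 at 2.25 ppm. The 0.1 ppm libraries were the highest 3, and library 0 ppm c lay among the other diets while a and b were the lowest of the 12. It fell by 1.58 (SE 0.29, adjusted p = 0.00663) at 0 ppm and fell by 1.16 (SE 0.29, adjusted p = 0.0273) at 2.25 ppm on the log2 scale, and the change of -0.77 at 0.4 ppm was not called (adjusted p = 0.213). The 2.25 ppm call did not hold when 0.1 ppm a, 0.1 ppm b, 2.25 ppm a or 2.25 ppm c was left out (0.0814 to 0.112).

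Slc43a3, the nucleobase carrier, lies 73.0 kb from Slc43a1 on chromosome 2. It was at 608, 728 and 644 at 0 ppm, 940, 1201 and 1197 at 0.1 ppm, 823, 809 and 869 at 0.4 ppm, and 882, 949 and 959 at 2.25 ppm. All 0 ppm libraries were below the other 9, and the 0.1 and 2.25 ppm libraries overlapped. The log2 change at 0 ppm was -0.75 (SE 0.10, adjusted p = 0.000778) and no single library ended the call, while -0.41 at 0.4 ppm (adjusted p = 0.0617) and -0.25 at 2.25 ppm (adjusted p = 0.156) were not called. Slc43a2, the related carrier LAT4, was at 184 to 317 over the 12 liver libraries and was not called in any contrast.

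The window around the start site of Slc43a1, at chr2:84840073-84840372 (plus strand) on GRCm38.p6 from RefSeq, is shown because it holds the E-box, in capitals, whose first base lies at -64 from the start site. Slc36a1, also called in liver, holds the E-box at -31 and -3. Slc38a7, which holds it too, was not called in liver. The other members with it, Slc1a6, Slc38a5 and Slc7a14, were at or under 3 reads in every liver library. The part of the motif in these levels was not tested.
Slc43a1: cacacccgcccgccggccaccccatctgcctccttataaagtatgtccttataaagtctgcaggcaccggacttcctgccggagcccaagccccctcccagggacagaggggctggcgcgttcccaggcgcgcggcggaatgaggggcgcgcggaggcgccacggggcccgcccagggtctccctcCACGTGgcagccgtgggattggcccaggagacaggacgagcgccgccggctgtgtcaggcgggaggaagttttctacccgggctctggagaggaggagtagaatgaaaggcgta

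Slc1a2, which in liver is a glutamate carrier of the hepatocytes around the central vein, was at 2298, 2308 and 3294 at 0 ppm, 3470, 4034 and 4370 at 0.1 ppm, 3067, 3011 and 3278 at 0.4 ppm, and 3096, 3092 and 2774 at 2.25 ppm. Its 0.1 ppm libraries were the highest 3, and library 0 ppm c was nearer to the 0.4 ppm libraries than to 0 ppm a and b. It fell by 0.60 at 0 ppm (SE 0.12, adjusted p = 0.0114), and the changes of -0.34 and -0.40 at 0.4 and 2.25 ppm were not called (adjusted p = 0.196 and 0.0662). The call ended when 0 ppm a, 0.1 ppm b or 0.1 ppm c was left out (0.051 to 0.0588) and under quantile normalization, and the change was 0.27 when 2 clock components entered the fit (adjusted p = 0.999). By diet, the summed level of the 9 pericentral hepatocyte markers was 146096 to 187480 at 0 ppm, 220118 to 260917 at 0.1 ppm, 189773 to 200763 at 0.4 ppm and 183220 to 199480 at 2.25 ppm, with none of the 9 at 0 in any library. Most of that sum was Cyp2e1. The markers were split: Cyp2e1, Glul, Oat, Cyp1a2 and Gulo had their highest mean at 0.1 ppm, Tbx3, Axin2 and Rhbg their lowest, and Lgr5 neither.

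Fewer carriers were higher than at 0.1 ppm. Slc7a7, the light chain y+LAT1 that exports dibasic amino acids with 4F2hc, was at 134, 91.3 and 110 at 0 ppm, 71.3, 72.2 and 55.7 at 0.1 ppm, 91.4, 96.0 and 110 at 0.4 ppm, and 66.8, 58.5 and 75.0 at 2.25 ppm. Its 0 and 0.4 ppm libraries lay above all those at 0.1 and 2.25 ppm. It rose by 0.73 at 0 ppm (SE 0.18, adjusted p = 0.0295), the change of 0.58 at 0.4 ppm was not called (adjusted p = 0.138), and leaving out 0 ppm a, 0 ppm c, 0.1 ppm b or 0.1 ppm c ended the call (0.0503 to 0.142). The summed level of 7 Kupffer cell markers averaged 8528, 8525, 10605 and 8300 at 0, 0.1, 0.4 and 2.25 ppm, and that of 6 cholangiocyte markers 1671, 886, 942 and 1104. Most of the cholangiocyte sum was Spp1, at 1503, 776, 799 and 886. Krt19, Epcam and Cftr also had their highest mean at 0 ppm, while Sox9 and Krt7 had theirs at 2.25 ppm. The part of these markers in the Slc7a7 result was not tested. Slc7a7 shares 7% of its exon bases with Oxa1l on the opposite strand, which was at 761 to 905 in liver.

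Slc36a1, the lysosomal proton-coupled carrier PAT1, was at 997, 869 and 1186 at 0 ppm, 900, 683 and 595 at 0.1 ppm, 803, 772 and 758 at 0.4 ppm, and 681, 715 and 686 at 2.25 ppm. The 0 ppm libraries overlapped 0.1 ppm a. It rose by 0.50 at 0 ppm (SE 0.13, adjusted p = 0.0422), a call that held without 0 ppm b or 0.1 ppm a and was lost without any of the other 10 libraries (0.0533 to 0.171). Slc1a5, the glutamine carrier ASCT2, was at 89.4, 66.3 and 67.3 at 0 ppm, 67.1, 63.9 and 66.0 at 0.1 ppm, 85.8, 85.8 and 99.0 at 0.4 ppm, and 91.0, 135 and 110 at 2.25 ppm. Its 0.1 ppm libraries lay below all 6 at the higher doses. It rose by 0.74 at 2.25 ppm (SE 0.18, adjusted p = 0.022), and this call ended when 0.1 ppm a, 0.1 ppm b, 2.25 ppm b or 2.25 ppm c was left out (0.0511 to 0.0837).

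Slc38a11, a little-studied family member, was near the limit of detection, at 7.28, 7.50 and 10.98 at 0 ppm, 19.6, 19.4 and 26.4 at 0.1 ppm, 9.84, 14.1 and 6.78 at 0.4 ppm, and 8.53, 5.32 and 0 at 2.25 ppm. The 0.1 ppm libraries were the highest 3. The fitted log2 change of -2.53 at 2.25 ppm (SE 0.65, adjusted p = 0.029) leans on the library with no read, and the call was lost without it or without any 0.1 ppm library (0.0544 to 0.0814) and with a pseudocount of 0.1 (0.0855).

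**Figure D3:**
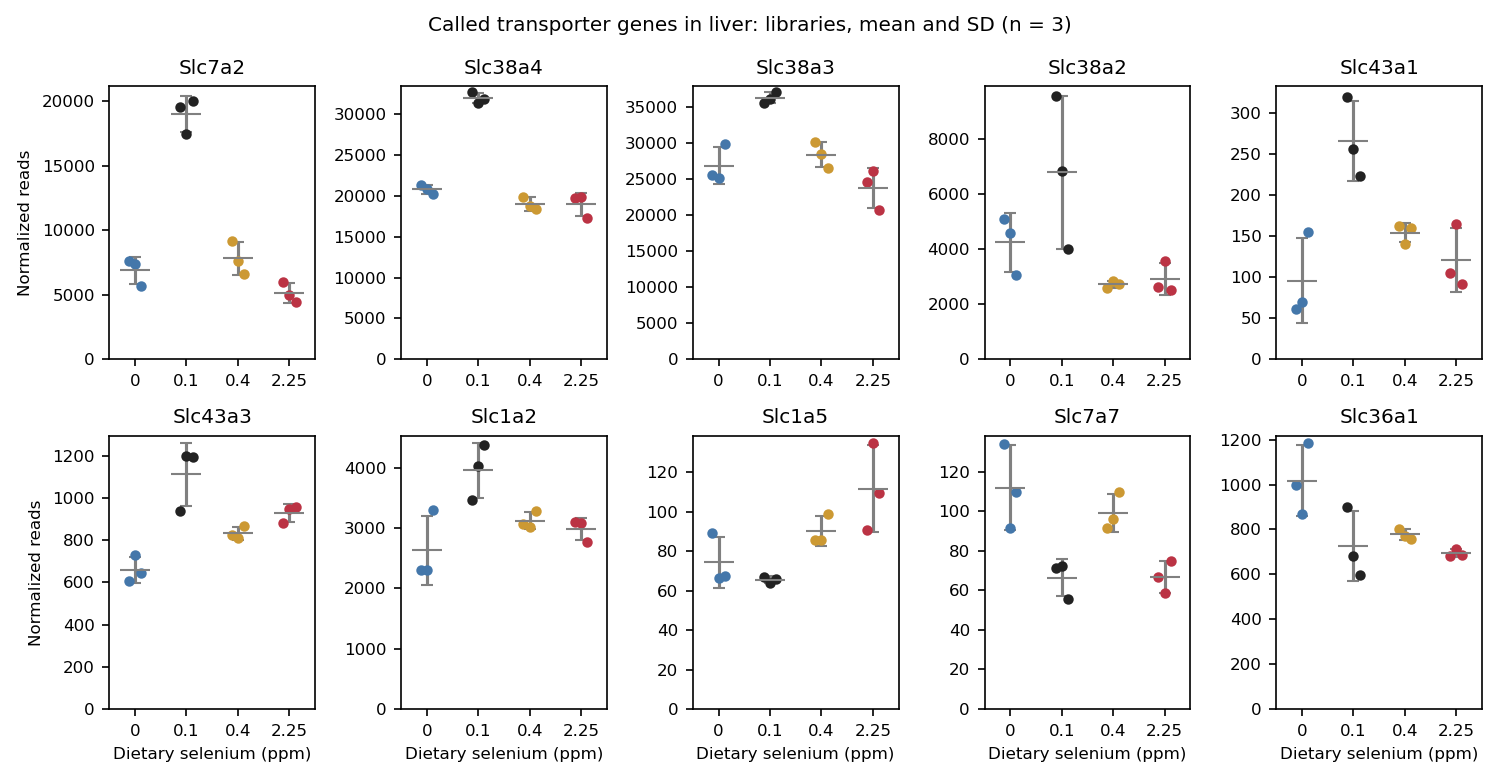
Normalized reads in each liver library (points) at 0, 0.1, 0.4 and 2.25 ppm selenium, with the mean and SD of the 3 libraries, for 10 called transporter genes; each axis starts at 0. Slc7a2, Slc38a4, Slc38a3, Slc43a1 and Slc1a2 peak at 0.1 ppm with no overlap, Slc43a3 is lowest at 0 ppm, and Slc1a5, Slc7a7 and Slc36a1 are higher on another diet than at 0.1 ppm.

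**Figure D4:**
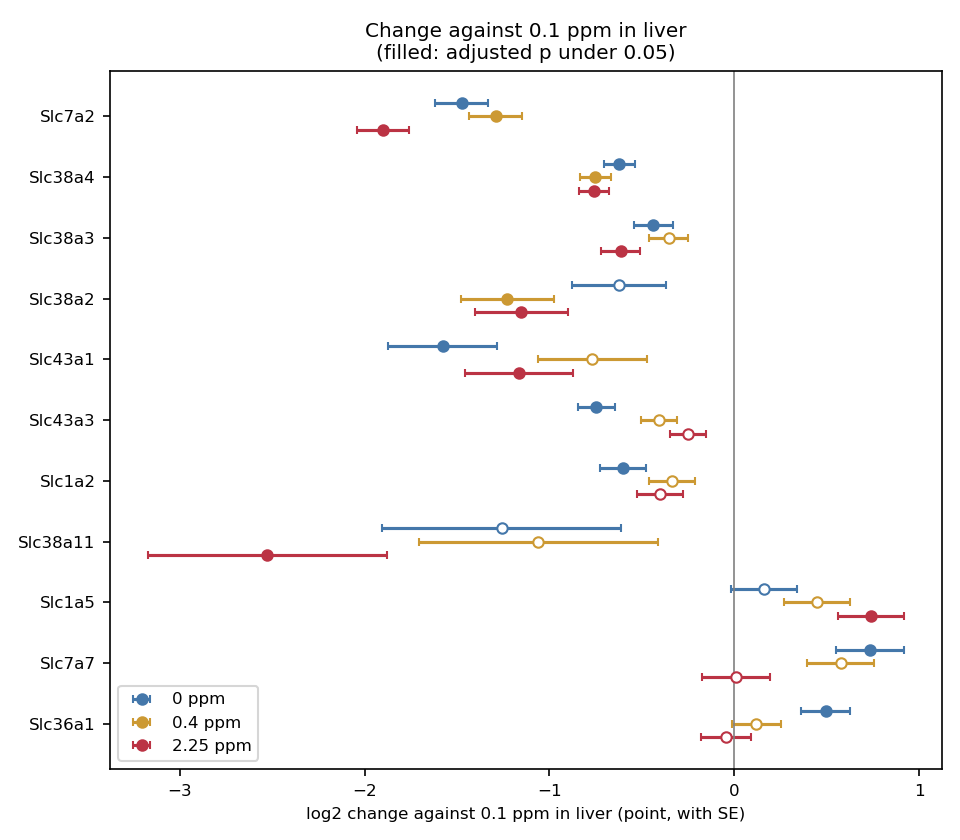
Log2 change against 0.1 ppm in liver with its SE, for the 11 called members at 0, 0.4 and 2.25 ppm; filled points passed an adjusted p of 0.05. Slc7a2 and Slc38a4 are filled at all 3 diets, with changes from -1.90 to -1.29 and from -0.76 to -0.62.

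The remaining liver carriers did not pass. Slc3a2, the heavy chain that partners Slc7a5, Slc7a7 and Slc7a8, was at 651 to 811 over the 12 libraries, with changes of 0.02, 0.06 and 0.13 (SE 0.09) at 0, 0.4 and 2.25 ppm. Slc38a10 was at 1985 to 2367, and Slc38a9, which passes arginine signals from the lysosome to mTORC1, at 228 to 301. Slc3a1 varied within groups, at 1030, 315 and 1061 at 0 ppm and 674, 366 and 264 at 0.1 ppm, and its changes of 0.80, 0.99 and 0.29 had an SE of 0.47. Slc1a4, a serine carrier, was at 195, 93.8 and 63.2 at 0 ppm and 54.5, 70.8 and 41.1 at 0.1 ppm (log2 change 0.94, SE 0.37, adjusted p = 0.168). Slc7a1, the cationic carrier most tissues use, was at 16.1 to 23.8 at 0 and 0.1 ppm, 9.84 to 10.8 at 0.4 ppm and 4.27 to 19.5 at 2.25 ppm (adjusted p = 0.158 for any difference). Slc7a5 was at 54.0 to 143, and Slc38a1 at 26.3 to 72.2.

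Clock genes moved with the diets in liver, and 2 principal components of their levels, of which diet accounts for 80.6% and 77.7%, were added to the fit. With them 0 members and 0 genes in all were called by limma at 0 and at 2.25 ppm, 2 of 28 genes called at 0.4 ppm were members, and Slc7a2 and Slc38a4 were the 2 that kept a call there and over the 4 diets.

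In brain, limma called 0 of 36 members for any difference among diets (0.0189% of all genes), 0 at 0 ppm (0.00947% of all genes higher and 0.0189% lower) and 0 at 0.4 ppm (0.00473% higher and 0.00473% lower). The counts at an unadjusted p under 0.05 were 8, 4 and 5 of 36 members, beside 1999, 1468 and 1708 of 21127 genes. The difference between the members and other genes was not tested. The quasi-likelihood test of edgeR called 0 members in each. At 2.25 ppm 1 of 36 was called, Slc38a2, where 0.227% of all genes were higher and 0.208% lower. Of the glutamate carriers, Slc1a2 was at 17435 to 24142 and Slc1a3 at 5380 to 7840 over the 12 libraries, and their largest changes were -0.12 (SE 0.11) and -0.16 (SE 0.12). Slc1a6, a glutamate carrier of Purkinje cells, varied more within groups, at 216 to 641 over the 12 libraries, and its changes of -0.17, -0.35 and -0.52 at 0, 0.4 and 2.25 ppm had an SE of 0.43.

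Slc38a2 in brain was at 2157, 2308 and 2414 at 0 ppm, 2025, 2154 and 2296 at 0.1 ppm, 2923, 2840 and 2783 at 0.4 ppm, and 3329, 2937 and 2758 at 2.25 ppm. All 6 libraries at 0.4 and 2.25 ppm lay above all 6 at 0 and 0.1 ppm. Against 0.1 ppm it rose by 0.48 at 2.25 ppm (SE 0.07, adjusted p = 0.0261), and the change of 0.40 at 0.4 ppm was not called (adjusted p = 0.162). Without the 2 brain libraries rich in pituitary transcripts the change was 0.48 again and the call was lost (adjusted p = 0.0839). It also ended when 0.1 ppm a, 0.1 ppm b, 0.4 ppm b or any library at 2.25 ppm was left out (0.0506 to 0.105), without the mean-variance trend (0.0892) and with only the 6 libraries compared (0.0872).

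Slc7a11, the cystine carrier xCT, was at 614, 645 and 529 at 0 ppm, 476, 530 and 417 at 0.1 ppm, 543, 470 and 520 at 0.4 ppm, and 633, 628 and 551 at 2.25 ppm. The 2.25 ppm libraries lay above all those at 0.1 ppm, and the 0 ppm libraries overlapped them by 1 library. The changes of 0.33 at 0 ppm (adjusted p = 0.486) and 0.35 at 2.25 ppm (adjusted p = 0.145) were not called.

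The start site windows of Slc7a7 in liver and of Slc7a11 in brain, from RefSeq on GRCm38.p6, are shown because they hold CARE. Slc7a7 has 5 windows, 2 of which hold a match, and the window at chr14:54417653-54417952 (minus strand) has it at -243 from the start site. Slc7a11, at chr3:50443564-50443863 (minus strand), has CARE at -66 and, on the other strand, at -47, and the forkhead motif at -232. Capitals mark the motifs.
Slc7a7: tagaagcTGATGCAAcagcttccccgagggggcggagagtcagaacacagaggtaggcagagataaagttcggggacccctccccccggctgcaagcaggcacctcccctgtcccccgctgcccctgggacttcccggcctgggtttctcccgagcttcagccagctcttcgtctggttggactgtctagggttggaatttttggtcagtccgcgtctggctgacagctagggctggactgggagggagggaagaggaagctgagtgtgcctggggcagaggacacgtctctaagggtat
Slc7a11: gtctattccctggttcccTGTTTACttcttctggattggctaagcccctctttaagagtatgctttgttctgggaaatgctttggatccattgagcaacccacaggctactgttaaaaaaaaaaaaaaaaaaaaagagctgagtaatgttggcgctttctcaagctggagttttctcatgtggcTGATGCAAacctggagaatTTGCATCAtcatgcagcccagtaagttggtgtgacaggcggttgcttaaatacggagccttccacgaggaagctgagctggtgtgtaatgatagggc

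The diet effect was tested between the tissues over all 24 libraries. It differed in 2 of 36 members, Slc7a2 (adjusted p = 4.66e-06) and Slc38a2 (adjusted p = 0.00546), against 3.55% of all genes, and no single library ended either call. Relative to 0.1 ppm, Slc38a2 changed in liver by -0.62, -1.23 and -1.15 at 0, 0.4 and 2.25 ppm and in brain by 0.09, 0.40 and 0.48, so the liver change minus the brain change was -0.71, -1.63 and -1.63. For Slc7a2 the liver change minus the brain change was -1.43, -1.50 and -1.96. With edgeR 4 members were called, Slc36a1 and Slc43a3 beside these.

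**Figure D5:**
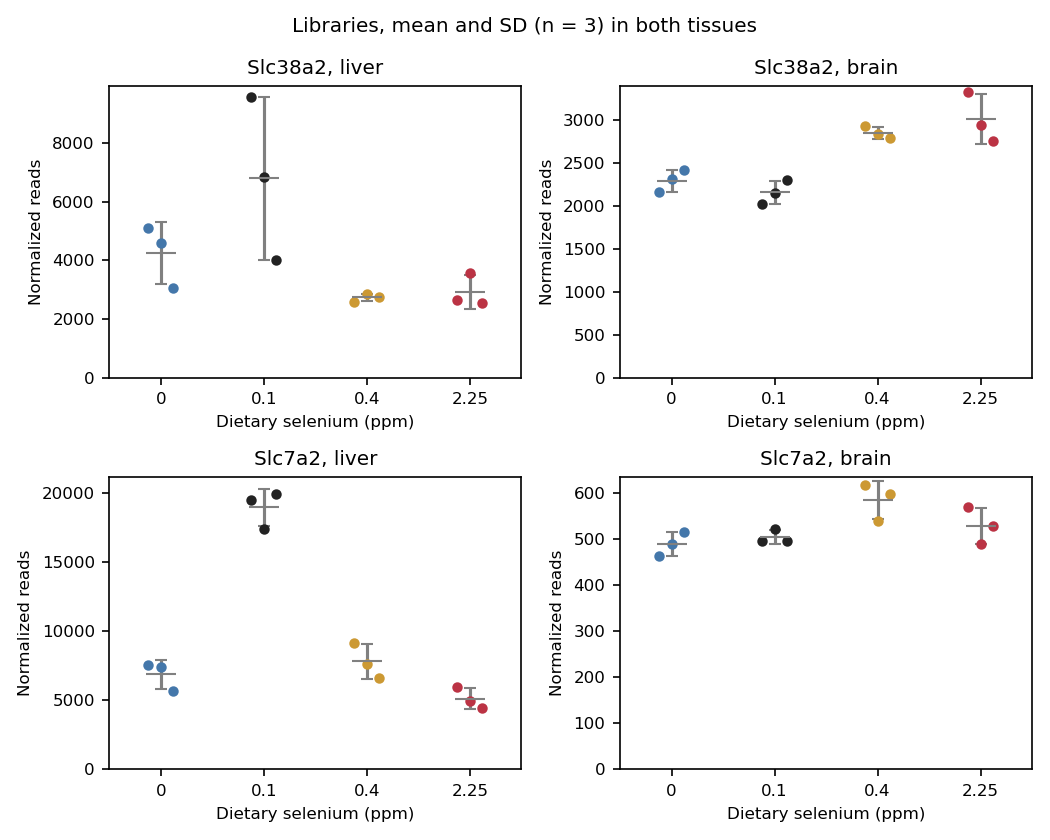
Normalized reads of Slc38a2 and Slc7a2 in each library of liver (left) and brain (right) at 0, 0.1, 0.4 and 2.25 ppm selenium, with the mean and SD of 3 libraries; each axis starts at 0. Slc38a2 is lower in liver and higher in brain at 0.4 and 2.25 ppm than at 0.1 ppm, and Slc7a2 stands out at 0.1 ppm in liver but not in brain.

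Other genes that handle amino acids were counted in the same liver fits, where 6.13%, 1.49% and 7.85% of all genes were called at 0, 0.4 and 2.25 ppm. At 0.4 ppm, 2986 of the 18945 genes tested had an unadjusted p under 0.05. Of 26 other amino acid and peptide carriers tested, 4 were called at 0 ppm, all lower, 1 at 0.4 ppm, lower, and 3 at 2.25 ppm, 2 higher and 1 lower. Slc25a13, the mitochondrial aspartate and glutamate carrier, fell by 0.60 (SE 0.08, adjusted p = 0.000563) at 0 ppm. Slc25a22, a mitochondrial glutamate carrier, fell by 0.99 (SE 0.14, adjusted p = 0.00126) at 2.25 ppm, where Slc6a6, the taurine carrier, rose by 0.42 (SE 0.09, adjusted p = 0.0108). The median log2 change of this list was -0.16, -0.14 and -0.21 at 0, 0.4 and 2.25 ppm.

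Of 48 enzymes of liver amino acid breakdown tested, 20 were called at 0 ppm, all lower, against 4.31% of all genes, and the others did not pass. The median log2 change over the list was -0.28. Asl, which splits argininosuccinate in the urea cycle, fell by 1.38 (SE 0.13, adjusted p = 6.44e-05), and Got1, the cytosolic aspartate aminotransferase, fell by 1.90 (SE 0.21, adjusted p = 0.000285). Gpt, an alanine aminotransferase, fell by 0.86 (SE 0.10, adjusted p = 0.000478) and Sds, the serine dehydratase, fell by 1.45 (SE 0.18, adjusted p = 0.000478). At 0.4 ppm limma and edgeR each called 0 of the 48, with 10 at an unadjusted p under 0.05, and the median was -0.12. At 2.25 ppm 1 was higher and 4 lower, with a median of -0.035. The 10 hepatocyte markers, which share Cps1 and Ass1 with this list, averaged 1518480, 2006420, 1815240 and 2026530 in sum at 0, 0.1, 0.4 and 2.25 ppm. Most of that sum was Alb, at 962716, 1324400, 1182900 and 1324300. Fabp1 and Ttr had their lowest mean at 0.4 ppm, and the other markers theirs at 0 ppm. The part of these markers in the result was not tested.

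Of 28 targets of ATF4, the transcription factor of the amino acid response, 4 were higher and 3 lower at 0 ppm, with a median of 0.17, 1 higher and 1 lower at 0.4 ppm (0.11), and 1 higher and 1 lower at 2.25 ppm (-0.098). Atf5, itself a factor of the response, rose by 1.18 (SE 0.17, adjusted p = 0.00108) and Cars, the cysteinyl-tRNA synthetase, by 0.87 (SE 0.13, adjusted p = 0.00212) at 0 ppm, while at 2.25 ppm Cebpb fell by 1.09 (SE 0.15, adjusted p = 0.00104) and Ddit3 rose by 1.20 (SE 0.20, adjusted p = 0.00262). The 2 calls at 2.25 ppm were near the share of all genes. Of 29 genes of amino acid sensing by GCN2 and mTORC1, 1 was higher and 1 lower at 0 ppm, also near the share of all genes, with a median of -0.052. At 0.4 ppm limma and edgeR each called 0, with 5 at an unadjusted p under 0.05 and a median of -0.049, and at 2.25 ppm 2 were higher and 1 lower, with a median of 0.013. Atf4 rose by 0.67 (SE 0.11, adjusted p = 0.00328) at 2.25 ppm. Of the 19 clock genes, 8 were lower and 2 higher at 0 ppm (median -0.62), and 5 lower and 4 higher at 2.25 ppm (median 0.077). At 0.4 ppm limma and edgeR each called 0 of them, with 7 at an unadjusted p under 0.05 and a median of 0.13. In brain, over these 5 lists and 3 contrasts, the calls were Slc15a4, a peptide and histidine carrier of lysosomes, which rose by 0.44 (SE 0.09, adjusted p = 0.0464), Ddit4, an inhibitor of mTORC1, which fell by 0.72 (SE 0.14, adjusted p = 0.0417), and Ciart, a clock repressor, which fell by 0.76 (SE 0.13, adjusted p = 0.0298), all at 2.25 ppm.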

How the data were processed

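RNA of whole brain and liver was extracted with TRIzol and made into libraries with the TruSeq Stranded Total RNA kit, per the labels' protocols. Per the submitters' processing notes, the build was mm10 and the tools named are STAR 2.5.2b and RSEM 1.3.0, beside Trimmomatic 0.33, bcl2fastq 2.17 and limma 3.34.5. The table the authors deposited holds a normalized signal, and the values show that each library's reads were divided by a single factor, since all 525456 values came within 0.01 of a whole read once multiplied back. These values, on a scale shared by both tissues, were tested as log2(value + 1) with limma 3.58.1 (R 4.3.3) and a mean-variance trend. A gene was tested when 3 or more libraries of the fit reached a value of 1. The 4 diets of a tissue entered 1 fit, and all 24 libraries the comparison of tissues. Fold changes on this scale understate those of low genes. edgeR 4.0.16 (quasi-likelihood test, TMM) on the recovered reads was an alternative.

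The columns give tissue and diet but no replicate number, so library letters follow column order and pair nothing. The spread behind the p-values is that between libraries and may be technical. Within groups, chi-square per gene was 4.01 to 56.5 for the 24 pairs of libraries, above sampling noise. Exon lengths, positions and overlaps are from GENCODE release M21 on GRCm38, which is mm10, and promoter windows from RefSeq.

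Members and gene lists were chosen with earlier results of these data known. Named with values were members called in any diet test, the 6 highest in each tissue, a fixed set of well-studied carriers and up to 4 called genes of each list, those with the smallest p, of which 1 is not reported here. Slc7a9, of that set, was not analysed here, and the authors' own p-values and NRF2 gene lists were not used here. The procedure was checked on simulated data.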

Additional observations from a re-analysis of the deposited data

Results flagged for a closer look

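The diet effect on Slc7a2 and on Slc38a2 differed between liver and brain by a test of the difference itself, over all 24 libraries. For Slc7a2 the adjusted p was 4.66e-06: all 3 liver libraries at 0.1 ppm lay above the other 9, and the brain libraries ranged from 463 to 618 normalized reads with no diet apart. For Slc38a2 the adjusted p was 0.00546: at 0.4 and 2.25 ppm all 6 liver libraries lay below those at 0.1 ppm, and all 6 brain libraries lay above those at 0.1 ppm. Nothing links the liver and brain columns of an animal, and the cause was not tested.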

How the results depend on the processing

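No paired analysis was possible because the columns carry no replicate number. The tables limit the tests to 3 libraries a group, and depth limits the members near 3 reads in liver. With edgeR every member called by limma in a diet test was called again, and the members with differing diet effects rose from 2 to 4. Without the mean-variance trend the liver calls were 4 at 0 ppm, 4 at 2.25 ppm and 3 for any difference, and the brain call at 2.25 ppm went to 0. With only the 6 libraries compared, the liver calls were 4 at 0 ppm and 5 at 0.4 ppm, and the brain count at 2.25 ppm was 0. With 2 clock components as covariates the liver calls were 0 at 0 ppm, 0 at 2.25 ppm and 2 for any difference, and the change of Slc1a2 at 0 ppm reversed to 0.27. Without the 2 brain libraries richest in pituitary transcripts the brain count at 2.25 ppm was 0. Slc36a1 lost its call over the 4 diets with no filter (adjusted p = 0.0509) and a pseudocount of 0.1 (0.053), and Slc1a5 with no filter (0.054). Over the fits that leave out a single library, liver counts were 4 to 8 at 0 ppm, 2 to 5 at 0.4 ppm, 3 to 8 at 2.25 ppm and 5 to 10 for any difference. Brain counts were 0 to 1 at 2.25 ppm and 0 in the other tests, 35 members differed between the tissues in every such fit, and the members with differing diet effects were 2 to 4. The cause of these changes was not tested.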
